A study of Mus musculus with 6 samples.

Results

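The IL-6, IL-27 and IL-10 axes were followed in N9 microglia through 10 genes, taken by gene name from a deposited table of read counts for 54532 genes. The members are the ligand genes Il6, Lif, Osm, Il27, Ebi3 and Il10 and the receptor genes Il6ra, Il6st, Il10ra and Il10rb. N9 is an immortalized line of mouse microglia, the resident macrophages of the brain, and was grown in RPMI medium with serum and antibiotics. RNA-seq compared 3 libraries of cells that had received LPS, a gram-negative outer membrane component, at 1 µg/ml for 6 h with 3 libraries of cells left without treatment. The labels number the libraries 1 to 3 in each group and do not say whether they came from separate cultures, so p-values measure the spread between these samples alone, which may be technical. Values listed for the libraries of a group follow this numbering.

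The members belong to pathways that meet at the transcription factor STAT3. IL-6 binds its receptor chain, encoded by Il6ra, and the complex then engages gp130, the shared signal-transducing chain encoded by Il6st. LIF and oncostatin M, the product of Osm, signal through the same gp130 together with a partner chain, LIFR or OSMR. IL-27 is a heterodimer of the chains encoded by Il27 and Ebi3, and its receptor pairs gp130 with the product of Il27ra. IL-10, known as a brake on macrophage and microglial activation, binds a ligand-binding chain encoded by Il10ra and an accessory chain encoded by Il10rb, which other IL-10 family receptors share. Janus kinases (JAK) attached to these receptors phosphorylate STAT proteins, and SOCS3 in turn blocks gp130 signaling.

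Total counts lay between 16363767 and 17956772 per library, and 3 counts corresponded to between 0.161 and 0.19 CPM (library-size scaled counts, here after TMM scaling), the level taken as the floor of detection for counting error. Of 15 microglia and macrophage markers, 11 passed edgeR's filter on low counts, among them Csf1r, Cd68, Spi1 and Tmem119. Others were nearly absent in both groups, with 3 to 6 counts of P2ry12, 4 to 9 of Aif1 and 0 or 1 of Sall1 per library. All 5 lymphocyte markers were at or under 3 counts in every library. Of 5 astrocyte markers, 2 were tested, and 1 of them, Aldh1l1, was lower with LPS (log2 fold change -0.29, edgeR adjusted p = 0.0129). Mbp, the 1 tested oligodendrocyte marker of 5, was also lower (-0.34, edgeR adjusted p = 0.00284). Of the 11 tested microglia and macrophage markers, 3 rose and 2 fell, beside 18.7% and 15.7% of all genes tested. Among these, Spi1 was at 0.58 and Trem2 at -0.52 (log2). The summed level of 5 hepatocyte markers ran from 0.117 to 19.4 CPM in the control libraries and from 0 to 0.548 CPM in the LPS libraries, with control replicates 2 and 3 carrying nearly all of it (155 and 292 counts of Alb, against 2 in control replicate 1). The collagen gene Col1a1 had 70, 3 and 49 counts without LPS and 40, 3 and 1 counts with it. In such bulk samples, a change in the share of cells that express a gene cannot be told apart from a change in RNA per cell.

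With LPS, Il6 appeared in libraries that otherwise held none, Lif was counted more often from a low level, and the receptor genes differed little. Of the 10 members, 6 passed the filter and were tested with edgeR's quasi-likelihood test, and Il6, Lif, Il27 and Il10 were below it. Ebi3, Osm and Il10rb passed an adjusted p of 0.05 in the direction of LPS, beside 18.7% of all 12296 genes tested, and Il6st was lower, beside 15.7%. Il6ra and Il10ra did not pass. The libraries of both groups lay apart for 5 of the 6 tested members, beside 45.3% of all genes tested. The median log2 fold change was 0.26 over the 6 tested members and 0.00356 over all genes tested. DEG were taken as genes with an absolute log2 fold change over 1.5 besides the adjusted p, which 2.65% of all genes tested were. Among the 6 tested members edgeR called 0 DEG, and 0 also with the unadjusted p in place of the adjusted one. DESeq2, which tests lower counts, called 2 members as DEG, Il6 and Lif, beside 325 up-regulated and 35 down-regulated DEG among 22309 genes. Both members were near the floor or at 0 in the control libraries, so this count is given as a description.

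**Figure D1:**
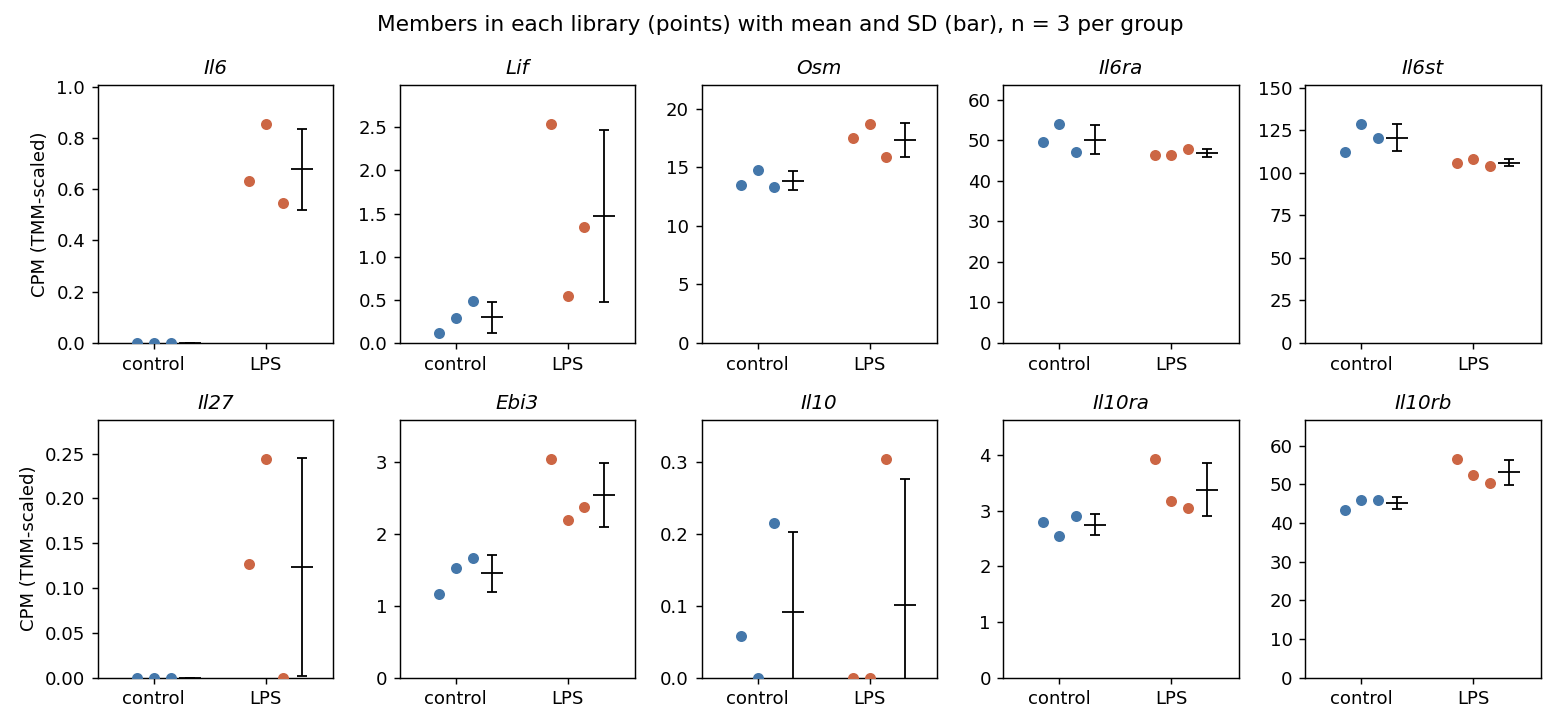
CPM after TMM scaling of each member in the 3 control and the 3 LPS libraries (points), with the mean and SD of each group beside them; each panel has its own axis, starting at 0. Il6 lies at 0 in every control library and between 0.548 and 0.854 CPM in the LPS libraries, whereas Il6ra and Il6st stay within a narrow range in both groups.

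Il6 (ENSMUSG00000025746) encodes the ligand after which the family is named, an inducer of the acute phase response. It lies on the plus strand of chromosome 5 of GRCm38 from 30013114 to 30019981. It had 0 counts in each control library and 10, 14 and 9 counts in the LPS libraries. Every LPS library therefore exceeded the floor, and no control library reached it. Against 3 counts per control library, Il6 was at least 4.02-fold higher with LPS, or between 3.5-fold and 4.41-fold with each library left out in turn. At 0.679 ± 0.158 CPM (SD, n = 3) with LPS, the gene remained rare and was below edgeR's filter. Without that filter, which Il6 could pass through the LPS group alone, its adjusted p was 6.4e-06 with edgeR (with an infinite prior degree of freedom) and 2.3e-04 with DESeq2.

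Upstream sequence was available for 5 of the 10 members, Il6, Lif, Ebi3, Il6ra and Il6st, in RefSeq on GRCm38.p6. The 250 bases before the start site are shown for Il6, Ebi3 and Il6st. Il6 is the member that went from 0 to above the floor in every LPS library. Ebi3 is the tested ligand gene with the largest change, and Il6st the abundant receptor gene that moved little. All are on the plus strand, written 5′ to 3′, and capitals mark matches to the motifs searched.
Il6, chr5:30012864-30013113: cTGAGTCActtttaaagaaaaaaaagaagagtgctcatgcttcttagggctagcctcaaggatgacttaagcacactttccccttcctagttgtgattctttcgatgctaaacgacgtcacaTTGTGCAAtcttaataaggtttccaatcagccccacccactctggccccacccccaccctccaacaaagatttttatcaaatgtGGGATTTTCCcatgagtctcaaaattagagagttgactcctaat
Ebi3, chr17:55952373-55952622: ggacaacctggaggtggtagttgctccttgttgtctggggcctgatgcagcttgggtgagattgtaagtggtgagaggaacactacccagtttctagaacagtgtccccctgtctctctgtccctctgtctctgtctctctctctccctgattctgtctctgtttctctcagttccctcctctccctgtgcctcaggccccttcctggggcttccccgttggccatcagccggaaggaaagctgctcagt
Il6st, chr13:112463820-112464069: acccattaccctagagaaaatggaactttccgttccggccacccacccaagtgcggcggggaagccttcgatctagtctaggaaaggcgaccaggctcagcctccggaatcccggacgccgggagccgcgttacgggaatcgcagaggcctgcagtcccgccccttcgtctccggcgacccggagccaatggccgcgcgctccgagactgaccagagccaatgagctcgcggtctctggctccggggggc

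The motifs were searched on both strands. In the Il6 window, AP-1 (TGANTCA) matched from -249 to -243, C/EBP (TTNNGCAA) from -128 to -121 and NF-kappa B (GGGA and TTCC with any 2 bases between them) from -44 to -35, counted from the start site. Among 32536 distinct RefSeq windows of the same length, 6.73% held the AP-1 letters, 9.57% the C/EBP letters and 1.21% the NF-kappa B letters. The Lif window matched AP-1 alone, from -228 to -222. No match to STAT (TTCNNNGAA, in 7.04% of windows), ISRE (GAAA, any 2 bases and GAAA again, in 2.98%) or TATA box (TATAAA, in 12.3%) was found in any of the 5 windows, and the Ebi3, Il6ra and Il6st windows matched none of the 6 motifs. These matches describe letters and are not evidence of binding. The windows also differed in base composition. The Il6 window had a GC content of 42.8% with 3 CpG dinucleotides, whereas that of Il6st had 66% with 26 CpG and that of Il6ra 65.2% with 18 CpG, beside a median GC content of 52.4% over all windows.

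Lif (ENSMUSG00000034394) encodes leukemia inhibitory factor, a gp130 ligand of the nervous and immune systems. Lif and Osm are neighbours on the plus strand of chromosome 11, with Lif from 4257557 to 4272514 and Osm ending 16530 bases before it. Lif had 2, 5 and 9 counts without LPS and 40, 9 and 22 counts with it. The highest control library and the lowest LPS library held the same count, and lay at 0.484 and 0.549 CPM after scaling. The mean went from 0.295 ± 0.184 to 1.47 ± 1.0 CPM (SD, n = 3), a ratio of 5.0, which fell to 3.2 without LPS replicate 1. Lif was below edgeR's filter, which it could pass through the LPS group alone. Its adjusted p was 5.3e-05 with edgeR on all genes (with an infinite prior degree of freedom) and 0.00605 with DESeq2. With edgeR and a filter at a mean of 10 counts, the adjusted p was 0.0084. Among the edgeR fits that left out a library and tested Lif, it reached 0.0303, without control replicate 1. The 5 fibroblast and endothelium markers summed to between 0.397 and 7.41 CPM in the control libraries and between 1.16 and 5.7 CPM in the LPS libraries. Among the LPS libraries, the collagen genes Col1a1 and Col1a2 were highest in replicate 1 (40 and 36 counts), as was Lif, and Pdgfra was lowest there (4 counts, against 6 and 9). Among the control libraries, replicate 1 held the most Col1a1 and Col1a2 (70 and 51 counts) and the least Lif. Pdgfra and Cdh5 had every LPS library above the controls in CPM, at 0.254 to 0.548 and 0.548 to 0.793, and Cldn5 had 0 counts throughout. The part of these cell types in the Lif level was not tested.

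Osm (ENSMUSG00000058755), from 4236420 to 4241026, encodes oncostatin M and was the ligand gene with the highest level per length. It had 231, 261 and 247 counts without LPS and 276, 306 and 260 counts with it. After scaling the LPS libraries all exceeded the controls, and the mean went from 13.9 ± 0.82 to 17.3 ± 1.42 CPM (SD, n = 3). The log2 estimate was 0.32 (SE 0.10; adjusted p by edgeR's test 0.0225). The call did not hold with DESeq2 (adjusted p = 0.0787), with scaling to total counts (log2 fold change 0.22, edgeR adjusted p = 0.0917), with control replicate 1 as the lone control (0.36, edgeR adjusted p = 0.109), or in 4 of the 6 edgeR fits that left out a library. Per library, the log2 ratio of Lif to Osm per length was -6.54 ± 0.915 in control cells and -4.71 ± 1.14 with LPS (SD, n = 3). The difference of 1.83 is given as a description, since Lif reached the minimum mean of 10 counts for such a ratio in the LPS group alone.

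Il27 (ENSMUSG00000044701), on the minus strand of chromosome 7 from 126589010 to 126594941, encodes the chain particular to IL-27. It had 0 counts in every control library and 2, 4 and 0 counts in the LPS libraries. The groups overlapped at 0, and 1 library exceeded the floor. Both fits that gave Il27 an adjusted p, edgeR without the filter and the same with robust dispersion, left it uncalled (0.16 and 0.162). The gene overlaps Apobr on the opposite strand, which had 677 to 897 counts per library, and the sources used here do not say whether counting used strand, without which reads of such a pair cannot be told apart.

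Ebi3 (ENSMUSG00000003206), on chromosome 17 from 55952640 to 55957022, encodes the receptor-like chain of IL-27, which IL-35 shares. It had 20, 27 and 31 counts without LPS and 48, 36 and 39 counts with it, with the groups apart. The mean rose from 1.46 ± 0.258 to 2.54 ± 0.446 CPM (SD, n = 3). The log2 fold change of 0.79 (SE 0.27, 95% interval 0.22 to 1.37; adjusted p by edgeR's test 0.0334) was the largest among the tested members. DESeq2 gave nearly the same size, 0.79, with an adjusted p of 0.118, and none of the 6 edgeR fits with a library left out called Ebi3, at 0.65 to 0.90. Nor was it called with scaling to total counts (0.70, edgeR adjusted p = 0.0531) or with control replicate 1 as the lone control (1.11, edgeR adjusted p = 0.0921). Ebi3 overlaps the antisense gene Gm16712, which had 4, 3 and 4 counts without LPS and 16, 21 and 15 counts with it. The part of antisense reads in the Ebi3 counts was not tested.

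Il10 (ENSMUSG00000016529), on chromosome 1 from 131019845 to 131024974, had 1, 0 and 4 counts without LPS and 0, 0 and 5 counts with it. Each group had a single library above the floor of 3 counts, and no fold is given. A difference in Il10 was not detectable at this depth (adjusted p = 0.98 with edgeR on all genes).

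Among the receptor genes, Il6st (ENSMUSG00000021756), on chromosome 13 from 112464070 to 112510086, had 1929, 2269 and 2243 counts without LPS and 1671, 1778 and 1708 counts with it. It was at 113, 129 and 121 CPM in the control libraries and at 106, 108 and 104 CPM in the LPS libraries, all below the controls. The log2 fold change was -0.19 (SE 0.05; adjusted p by edgeR's test 0.0131), a decrease that lost its call without control replicate 2 (edgeR adjusted p = 0.0588) or without LPS replicate 3 (0.0539). With control replicate 1 alone as control, the other control libraries being those with hepatocyte markers, the log2 fold change was -0.08 (edgeR adjusted p = 0.416), with the spread of the lone control assumed from the LPS group.

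Il6ra (ENSMUSG00000027947), on the minus strand of chromosome 3 from 89864059 to 89913196, had 848, 951 and 874 counts without LPS and 731, 758 and 786 counts with it. In CPM the groups overlapped, at 47 to 53.9 in the control and 46.2 to 47.9 in the LPS libraries. An estimate of -0.10 (log2) came with a 95% interval from -0.23 to 0.04 (edgeR adjusted p = 0.258), and scaling to total counts gave -0.20 and a call (edgeR adjusted p = 0.023). Per library, the log2 ratio of Il6ra to Il6st per length was -0.905 ± 0.0876 in control cells and -0.819 ± 0.0561 with LPS (SD, n = 3), so that the IL-6 binding chain was the rarer of the pair in every library. Its difference of 0.0859 had p = 0.3 in a two-sided exact permutation test (0.45 after adjustment over 3 pairs), where 3 libraries against 3 cannot go below 0.1.

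Il10rb (ENSMUSG00000022969), on chromosome 16 from 91406164 to 91425834, had 741, 812 and 853 counts without LPS and 892, 858 and 827 counts with it. After scaling the groups lay apart, at 45.1 ± 1.56 and 53.1 ± 3.16 CPM (SD, n = 3). The log2 fold change was 0.24 (SE 0.06; adjusted p by edgeR's test 0.00848) and the call held in all 6 fits that left out a library, but not with scaling to total counts (0.14, edgeR adjusted p = 0.0944). Il10ra (ENSMUSG00000032089), on chromosome 9 from 45253837 to 45269149, had 48, 45 and 54 counts without LPS and 62, 52 and 50 counts with it. The estimate, 0.29 on the log2 scale, had a 95% interval from -0.16 to 0.75 (edgeR adjusted p = 0.317). The log2 ratio of Il10ra to Il10rb per length was -3.9 ± 0.121 in control cells and -3.85 ± 0.114 with LPS (SD, n = 3), and the difference of 0.0534 had p = 0.6 in the exact permutation test, also after adjustment.

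**Figure D2:**
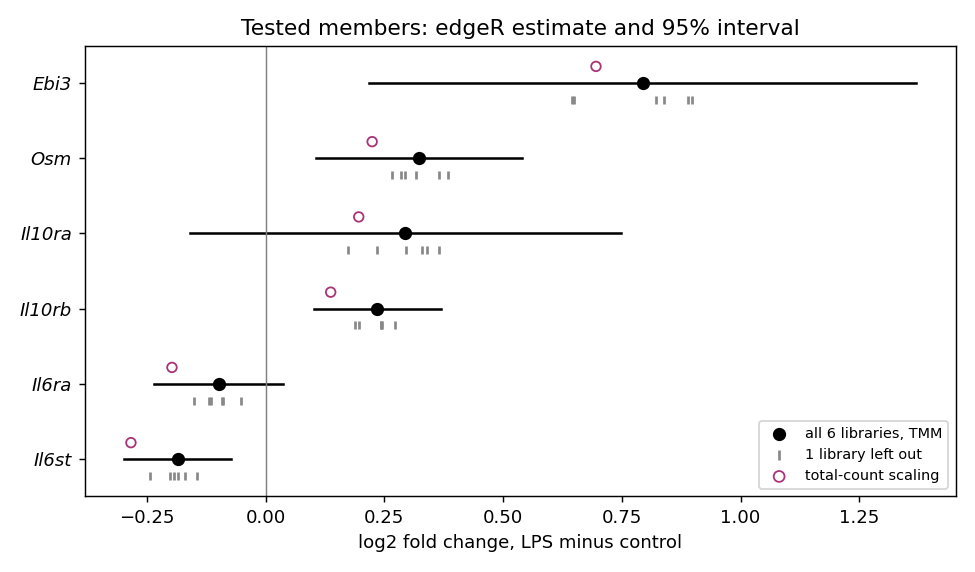
The log2 fold change of LPS over control for the 6 tested members: black points with bars are the edgeR estimate and its 95% interval, grey ticks the 6 fits that left out a library, and open circles the fit scaled to total counts. Ebi3 has the largest estimate, 0.79, and the widest interval, and the intervals of Il6ra and Il10ra cross 0.

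Set beside each other per kb of gene length, the levels of the members spanned a wide range. In control cells the order was Il10rb (11.8 ± 0.41 CPM per kb), Il6st (10.9 ± 0.722), Osm (6.1 ± 0.361), Il6ra (5.8 ± 0.404), Ebi3 (1.26 ± 0.224) and Il10ra (0.787 ± 0.0521; SD, n = 3), with Il10, Lif, Il6 and Il27 below 0.2 in every library. Il10rb and Il6st overlapped in that order, as did Osm and Il6ra. With LPS, the same 6 genes kept their order, and each lay apart from the next, with Il10rb at 13.9 ± 0.829 and Il6st at 9.56 ± 0.2 CPM per kb. Lif and Il6 followed at 0.339 ± 0.23 and 0.279 ± 0.065 CPM per kb, with overlapping libraries.

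**Figure D3:**
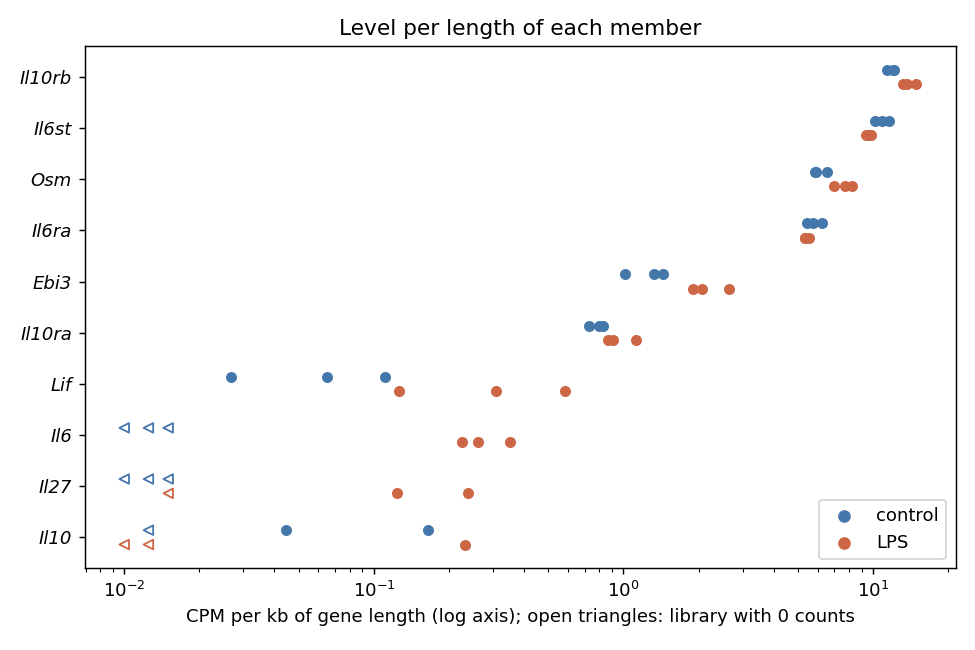
CPM per kb of gene length of each member by library, on a log axis, with open triangles at the left edge for libraries with 0 counts. The receptor genes Il10rb, Il6st and Il6ra and the ligand gene Osm lie above 5 CPM per kb in all 6 libraries, and Il6, Il27 and Il10 have libraries at 0.

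The partner genes of these ligands were mostly at the floor. Of 10 further ligand genes of the IL-6 and IL-12 families, 8 had 3 counts or fewer in every library, and both chains of IL-12, Il12a and Il12b, had 0 in all 6 libraries. Of 9 further receptor genes of these families, 1 was tested. Lifr had 0 to 2 counts and Osmr 0 or 1 per library, so that neither partner chain of gp130 for LIF and oncostatin M was detected above the floor. Il27ra, the partner for IL-27, had 8, 4 and 12 counts without LPS and 11, 7 and 6 counts with it, with overlapping groups. Il12rb1, a chain of the IL-12 and IL-23 receptors, had 8, 6 and 8 counts against 1, 0 and 3 with LPS, with the groups apart. None of the 3 fits with an adjusted p for Il12rb1 called it (edgeR and DESeq2, 0.0983 to 0.155).

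In the IL-10 family, 5 of 6 further ligand genes were at or under 3 counts in every library. Of the 5 further receptor genes, 2 were tested. Il20rb, a chain of the receptors for IL-19, IL-20 and IL-24, had 44, 34 and 50 counts without LPS and 155, 189 and 147 counts with it. It rose from 2.4 ± 0.41 to 10.1 ± 1.31 CPM (SD, n = 3), with an estimate of 2.07 ± 0.18 (log2, SE; adjusted p by edgeR 2.9e-07), and was a DEG. Il20ra and Il22ra1, chains that pair with Il20rb or Il10rb, had 0 counts in every library.

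Downstream, 10 of 11 signal transducers were tested, and 4 rose, 2 fell and 4 did not pass, beside 18.7% of all genes tested that were higher and 15.7% that were lower. Stat3 rose from 177 ± 4.76 to 215 ± 3.31 CPM (SD, n = 3), by 0.28 (log2, SE 0.04; adjusted p by edgeR's test 1.3e-04). Among the Janus kinases, Tyk2 rose by 0.92 (SE 0.06; adjusted p by edgeR's test 8.1e-09) and Jak1 by 0.22 (edgeR adjusted p = 0.00134), whereas Jak2, at -0.09, did not pass (edgeR adjusted p = 0.24) unless counts were scaled to their totals (-0.19, edgeR adjusted p = 0.0171). Shc1, an adaptor, and Sos1, an exchange factor for Ras, both of the MAP kinase branch, were the members of this list that fell, by 0.35 and 0.25 on the log2 scale, and were singled out after their values were seen. Sos1 lost its call without LPS replicate 3 (edgeR adjusted p = 0.0551) and with control replicate 1 as the lone control (-0.20, edgeR adjusted p = 0.186).

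Of 9 inhibitors and sheddases, 8 were tested, and 3 rose and 3 fell, beside those 18.7% and 15.7% of all genes. Socs3, the inhibitor that binds gp130, had 675, 684 and 734 counts without LPS and 2596, 2800 and 2639 counts with it. It rose by 2.08 on the log2 scale (SE 0.05; adjusted p by edgeR's test 8.2e-14). Socs1 rose by 2.37 from 5 to 8 counts per control library (SE 0.36; adjusted p by edgeR's test 1.3e-04). It passed the filter through its LPS libraries alone. The third gene that rose was Adam17, a protease that sheds the IL-6 receptor, by 0.20 (edgeR adjusted p = 0.00259, or 0.0811 with scaling to total counts), whereas Adam10, a protease with overlapping substrates, fell by 0.36 log2 units (edgeR adjusted p = 5.9e-06). The phosphatase gene Ptpn6 (SHP-1) fell by 0.55 (edgeR adjusted p = 5.2e-08) and Pias3, an inhibitor of STAT3, by 0.49 (edgeR adjusted p = 0.00296), on the same scale. Adam17, Adam10, Ptpn6 and Pias3 were singled out after their values were seen.

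All 12 genes listed as STAT3 targets were tested, and 9 rose, 1 fell and 2 did not pass, beside 18.7% higher and 15.7% lower over all genes tested, with a median log2 fold change of 0.77. Many of them also answer to other pathways. The DEG among them was Myc, which went from 51, 76 and 55 counts to 440, 445 and 398 counts, a log2 change of 2.95 (SE 0.14; adjusted p by edgeR's test 3.0e-10). The gene that fell was Nfil3, singled out after its values were seen, a transcription factor known to act downstream of IL-10, at -0.75 (SE 0.10; adjusted p by edgeR's test 2.1e-05).

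The genes known to regulate the transcription or decay of Il6, Il10 and Il27 transcripts formed the list with the highest median, 0.98. All 11 were tested, and 10 rose and 1 fell, beside the same shares of all genes. Nfkbiz encodes I-kappa B zeta, a nuclear cofactor of Il6 transcription. It had 71, 113 and 115 counts without LPS and 1071, 1212 and 1005 counts with it, a log2 change of 3.59 (SE 0.12; adjusted p by edgeR's test 5.6e-12). Zc3h12a encodes Regnase-1, which degrades Il6 mRNA. It rose from 6.84 ± 0.719 to 81.1 ± 2.34 CPM (SD, n = 3), by 3.56 (SE 0.08; adjusted p by edgeR's test 5.8e-14). Maf, an activator of Il10 transcription, had 2, 5 and 0 counts without LPS and 30, 15 and 24 counts with it, a log2 change of 3.37 (SE 0.62; adjusted p by edgeR's test 5.8e-04) that ran from 2.77 to 4.49 with each library left out. With the fold threshold inside the test (edgeR's glmTreat), Maf and Socs1 were not called (adjusted p = 0.0895 and 0.255). Prdm1, which encodes the repressor Blimp-1, had 3, 4 and 2 counts without LPS and 22, 29 and 30 counts with it. It rose by 3.25 (SE 0.44; adjusted p by edgeR's test 3.6e-05). Maf, Prdm1 and Socs1 passed the filter through their LPS libraries alone, so their p-values are given as a description. The gene that fell was Irf8, singled out after its values were seen, at -0.41 (edgeR adjusted p = 6.6e-05). Over all 73 further genes of these axes, 44 were tested, of which 27 rose and 7 fell, beside 18.7% and 15.7% of all genes tested. The 9 DEG among these 44 were all up-regulated, with Maf, Prdm1 and Socs1 among them. Over all genes tested, 2.4% were up-regulated DEG and 0.252% down-regulated DEG, so that 295 of 326 DEG were up-regulated there too.

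**Figure D4:**
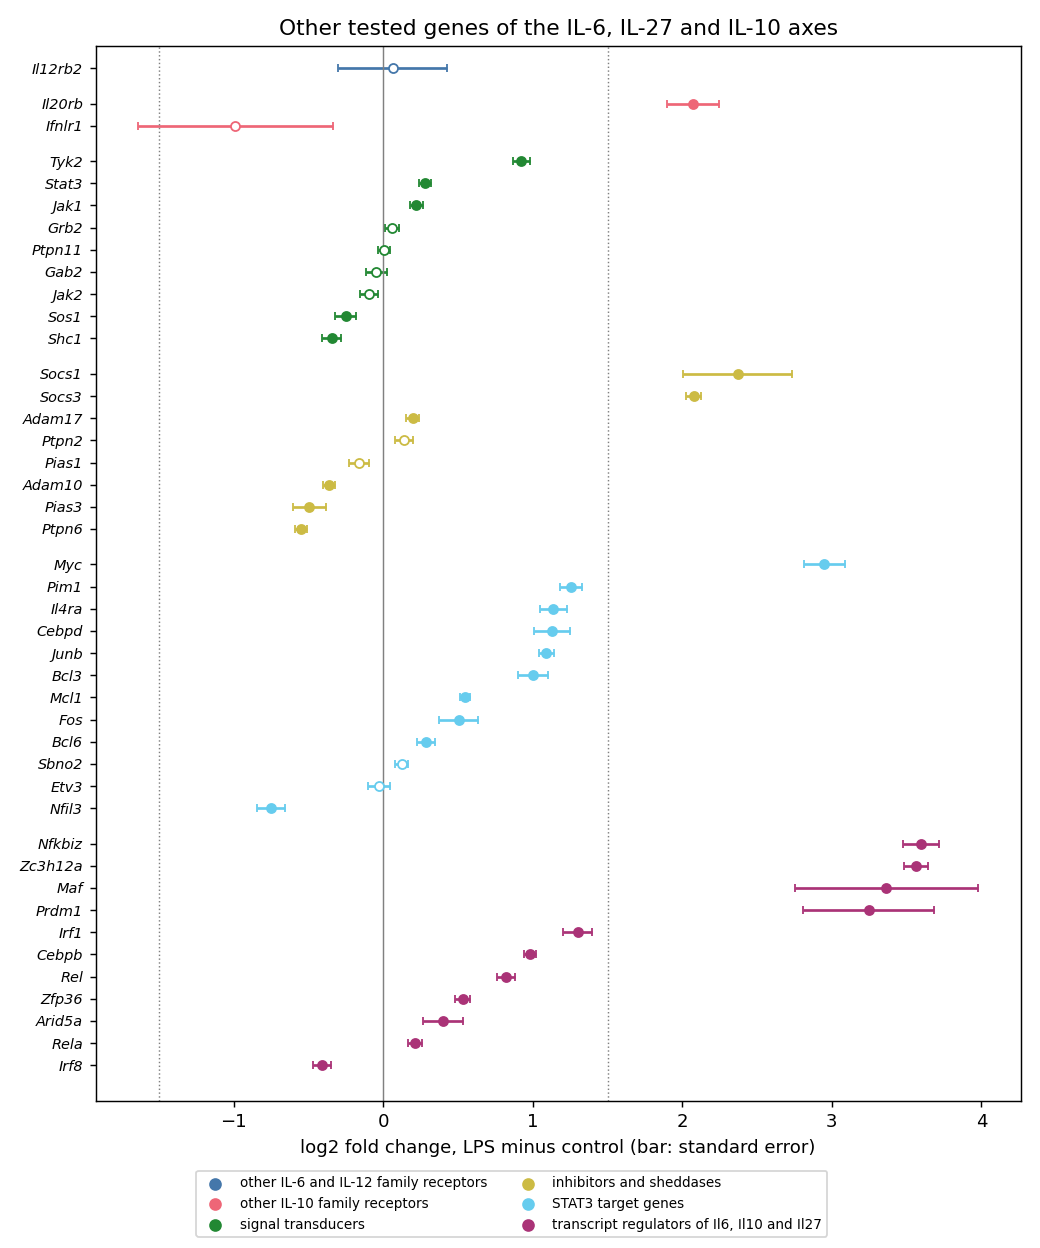
The log2 fold change of LPS over control with its standard error for 43 tested genes of the further lists, colored by list; filled points passed an adjusted p under 0.05, open points did not, and dotted lines mark 1.5 in either direction. The 8 DEG shown, from Il20rb at 2.07 to Nfkbiz at 3.59, all lie to the right.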

How the data were processed

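The authors deposited read counts per gene, whole numbers without normalization, for 6 libraries prepared by Novogene. The submitters' processing notes name featureCounts 1.5.0-p3 and the build mm10. The aligner, the annotation release and the use of strand are not given in the sources used here. Of 54495 genes shared with GENCODE M21 on GRCm38, 98.3% had the same position, as did all 10 members. A table with the authors' own fold changes and p-values, beside 18 other columns of per-sample values and 2 of means, was not used.

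edgeR 4.0.16 under R 4.3.3 tested LPS against control with TMM scaling, filterByExpr and a prior count of 0.125, with Benjamini-Hochberg adjustment over 12296 genes. Intervals used the test's degrees of freedom. Pair ratios added 0.5 to counts (pairs with a gene under a mean of 10 counts in both groups, Ebi3 with Il27 and Il6 with Il10, were left out) and were tested with scipy 1.17.1 (Python 3.11.15), with adjustment over 3 pairs including Lif with Osm, whose p is not given. Figures were drawn in matplotlib 3.10.9. Within groups, library pairs differed by more than sampling noise (chi-square per gene 3.47 to 7.35), and each counted as 1 sample. Since PCR copies were not told apart by molecular identifiers, floors cover counting error only.

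The members and lists were chosen with earlier results of these data known. Genes named are the members, listed partners and transducers, and list genes that were DEG, with others marked; genes most like a DEG member in pattern were to be named, but no tested member was a DEG. Alternatives were DESeq2 1.42.0, RLE scaling, other filters, a prior count of 2, glmTreat, a replicate block, and each library left out. Of the further tested genes, 1 is counted but not reported here. The scripts were tested on simulated data.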

Additional observations from a re-analysis of the deposited data

How the results depend on the processing

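Signs of the log2 fold changes held for the 6 tested members and the 21 further tested genes followed, under every alternative that fitted them. The difference in the log2 ratio of Il10ra to Il10rb reversed, to -0.0155 without control replicate 2 and -0.0123 without LPS replicate 1, within a range up to 0.0965 with each library left out. That range was 0.0394 to 0.126 for Il6ra to Il6st and 1.33 to 2.45 for Lif to Osm.

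Of all genes, 2294 were higher and 1927 lower with LPS, or 1520 and 3342 when scaled to total counts, an alternative added after the data were seen that moved the median log2 fold change from 0.00356 to -0.0947. That scaling called 0 members higher and 2 lower, in place of 3 and 1. With control replicate 1 as the lone control, also added later, 1151 genes were lower, 0 members were lower and 2 members were DEG. The members called as DEG there were Il6 and Lif, at log2 fold changes of 6.50 and 3.57, with 0 and 2 counts in that control. They passed the filter through their LPS libraries alone. A lone control has no spread of its own, so the counts from this fit are given as a description and decide nothing. Up-regulated DEG numbered 295, or 181 by glmTreat, and down-regulated DEG 31, or 91 without the filter, 76 without it and with robust dispersion (added later) and 2 by glmTreat. Without the filter, 5 members were higher, with or without robust dispersion, beside 2344 of 22311 genes, or 2316 with robust dispersion. Of these members, 2 were DEG, as by DESeq2, beside 378 up-regulated DEG, or 363 with robust dispersion. They were Il6 and Lif, which are high in their LPS libraries alone. A filter at a mean of 10 counts gave 1 member as DEG, Lif, beside 282 up-regulated DEG among 12240 genes. Lif passed that filter through its LPS libraries alone.

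With each library left out in turn, down-regulated DEG numbered from 38 to 62, members higher from 1 to 4, members lower from 0 to 1, members called as DEG from 0 to 2, and down-regulated DEG among the further genes from 0 to 1. The members called as DEG in these fits were Il6 and Lif, which are also among the members higher where called. Both reached the filter through their LPS libraries alone, so these counts of members are given as a description. Correlations of the deviations of same-numbered libraries were 0.131, 0.0484 and 0.0049, so the numbers were not taken as pairs, and not every library correlated best with its own number. With a replicate block, 2454 genes were higher and 2020 lower, 3 members were higher and 1 lower, and the differences of 0.0859 (Il6ra to Il6st) and 0.0534 (Il10ra to Il10rb) were the same by construction, with p = 0.5 for each in exact paired permutation tests that cannot go below 0.25. Depth limits Il6, Il27 and Il10, with 14 counts or fewer in every library, and Lif in the control libraries, with 9 or fewer.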
